A study of Mus musculus with 5 samples.

Results

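The clustered protocadherin genes of mouse chromosome 18 were examined for DNA methylation at their gene starts. The members were the 58 genes whose symbols begin with Pcdha, Pcdhb or Pcdhg, set beside 21900 protein coding genes in the gene table as a whole. One of them, Pcdhgb8, is annotated as a transcribed pseudogene. They comprise 14 genes of the alpha sub-cluster (chromosome 18, mm10, 36930285 to 37188897), 22 of the beta sub-cluster (37264998 to 37521419) and 22 of the gamma sub-cluster (37661775 to 37841873). Each member was described by the mean methylation level of cytosines from 1000 bp before to 3000 bp after its start coordinate. A window needed 3 or more cytosines listed in all 5 libraries, and 51 members met this, 12 alpha, 17 beta and 22 gamma. The other 7 were Pcdha6, Pcdha9, Pcdhb4, Pcdhb6, Pcdhb8, Pcdhb11 and Pcdhb19.

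Clustered protocadherins are cell surface adhesion molecules of the cadherin superfamily, best known from neurons. In the alpha and gamma sub-clusters each gene start is a variable exon with its own promoter, which is spliced to constant exons shared by the whole sub-cluster. Beta genes have a single exon each. A neuron uses a limited set of these promoters, largely at random, and the resulting mix of proteins on its surface lets it recognise its own branches. A few genes at the end of the alpha and gamma arrays, called C-type, are not chosen at random in the same way. In mice the de novo methyltransferase Dnmt3b methylates the variable promoters in the early embryo, and CTCF and cohesin bring promoters without methylation to distant enhancers.

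The study measured methylation by reduced representation bisulfite sequencing, which reads CpG cytosines mostly in CpG-rich DNA. Tissue came from mice of the C57BL/6x129S6 background. The 4 teratomas, tumours holding differentiated tissues, formed after embryonic stem cells were injected into tetraploid embryos. They are named by the culture condition of the stem cells as P5_2iL, P5_2iL_F, P5_a2iL_1 and P5_LCDM_1, abbreviations that the labels do not spell out, and muscle served as the control tissue. Each of the 5 groups holds 1 library, so no test between groups was possible and every difference below describes a pair of libraries. All differences from muscle use the same muscle library. In bulk DNA, methylation on part of the DNA copies in every cell and methylation in part of the cells cannot be told apart.

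The files list from 4017125 cytosines (muscle) to 5323090 (P5_2iL_F), give a percent for each and hold no read counts, so the depth behind a value is unknown. The only error measure was how far both cytosines of a CpG, one on each strand, differed within 1 library, over 41 members with 3 or more complete pairs. From it the root mean square error of a member's mean was 3.50 percentage points in P5_2iL, 3.67 in P5_2iL_F, 4.02 in P5_a2iL_1, 4.11 in P5_LCDM_1 and 6.70 in muscle. The muscle value includes 1 member, Pcdhb13, whose strands lay 60 points apart. The error of a difference between a teratoma and muscle was then 7.56 to 7.86 points. It leaves out the spread between animals and between library preparations. Of 11 measured genes of a skeletal muscle list, 5 in P5_2iL, 5 in P5_2iL_F, 5 in P5_a2iL_1 and 3 in P5_LCDM_1 were at least 25 points above muscle and 0 were as far below it. Of 9 measured genes of a neural list, Gfap was 25 points or more above muscle in P5_2iL, and 0 genes were in the other teratomas. Of 4 measured epithelial genes 1 was as far above muscle in each teratoma but P5_a2iL_1, where 0 were. Of 3 endothelial genes 2 were as far below muscle in P5_2iL, 1 in P5_2iL_F, 0 in P5_a2iL_1 and 2 in P5_LCDM_1. The 1 measured leukocyte gene, Vav1, was at 0.763%, 3.22%, 19.7% and 20.6% in these teratomas, against 40.9% in muscle. Over all genes with this window, 4.2%, 3.9%, 2.49% and 2.52% were as far above muscle in P5_2iL, P5_2iL_F, P5_a2iL_1 and P5_LCDM_1. As far below it were 1.24%, 1.03%, 0.755% and 1.29%. Among other genes with a mean level of 20 to 80%, 21.6%, 20.1%, 12% and 11.7% were as far above, and 6.69%, 5.65%, 3.67% and 5.85% as far below. The part of tissue makeup in the protocadherin results was not tested.

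The protocadherin gene starts stood at intermediate levels in all 5 libraries. Of the 51 measured members, 33 (64.7%) lay between 20 and 80% in every library, against 1010 of 12181 gene windows of the same size over the autosomes (8.29%). Only Pcdhac2, Pcdhgc3 and Pcdhgc4 were below 20% in all 5 libraries (5.88% of members), where 72.4% of all gene windows were. Pcdhb14 alone was above 80% in all 5. The sub-clusters differed in level. Beta members had the highest median, 68.9% in P5_2iL, 74.7% in P5_2iL_F, 66.2% in P5_a2iL_1, 68.4% in P5_LCDM_1 and 62.5% in muscle, except that gamma was above beta in P5_LCDM_1. Gamma members had medians of 63.1%, 62.0%, 63.5% and 73.3% in the same 4 teratomas and 50.8% in muscle. Over the whole window alpha members were lowest, at 47.6%, 47.4%, 49.5% and 48.0% in the teratomas and 43.2% in muscle. This order did not hold in the first 500 bp after the start, over 12 alpha, 8 beta and 19 gamma members. There gamma was lowest in muscle, at 24.8%, below 33.7% over alpha and 47.7% over beta. It was also lowest in P5_2iL (38.1%), P5_2iL_F (38.2%) and P5_a2iL_1 (35.7%), and beta was lowest in P5_LCDM_1 (35.5%). The windows also differed in coverage, with a median of 62 shared cytosines for alpha, 19 for beta and 76 for gamma members. Few cytosines lay before the start. In the 500 bp before it, 3 or more were shared at only 3 beta members, 2 C-type members, and 1 alpha and 3 gamma members outside the C-type. The levels thus describe mostly DNA after the start.

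**Figure D1:**
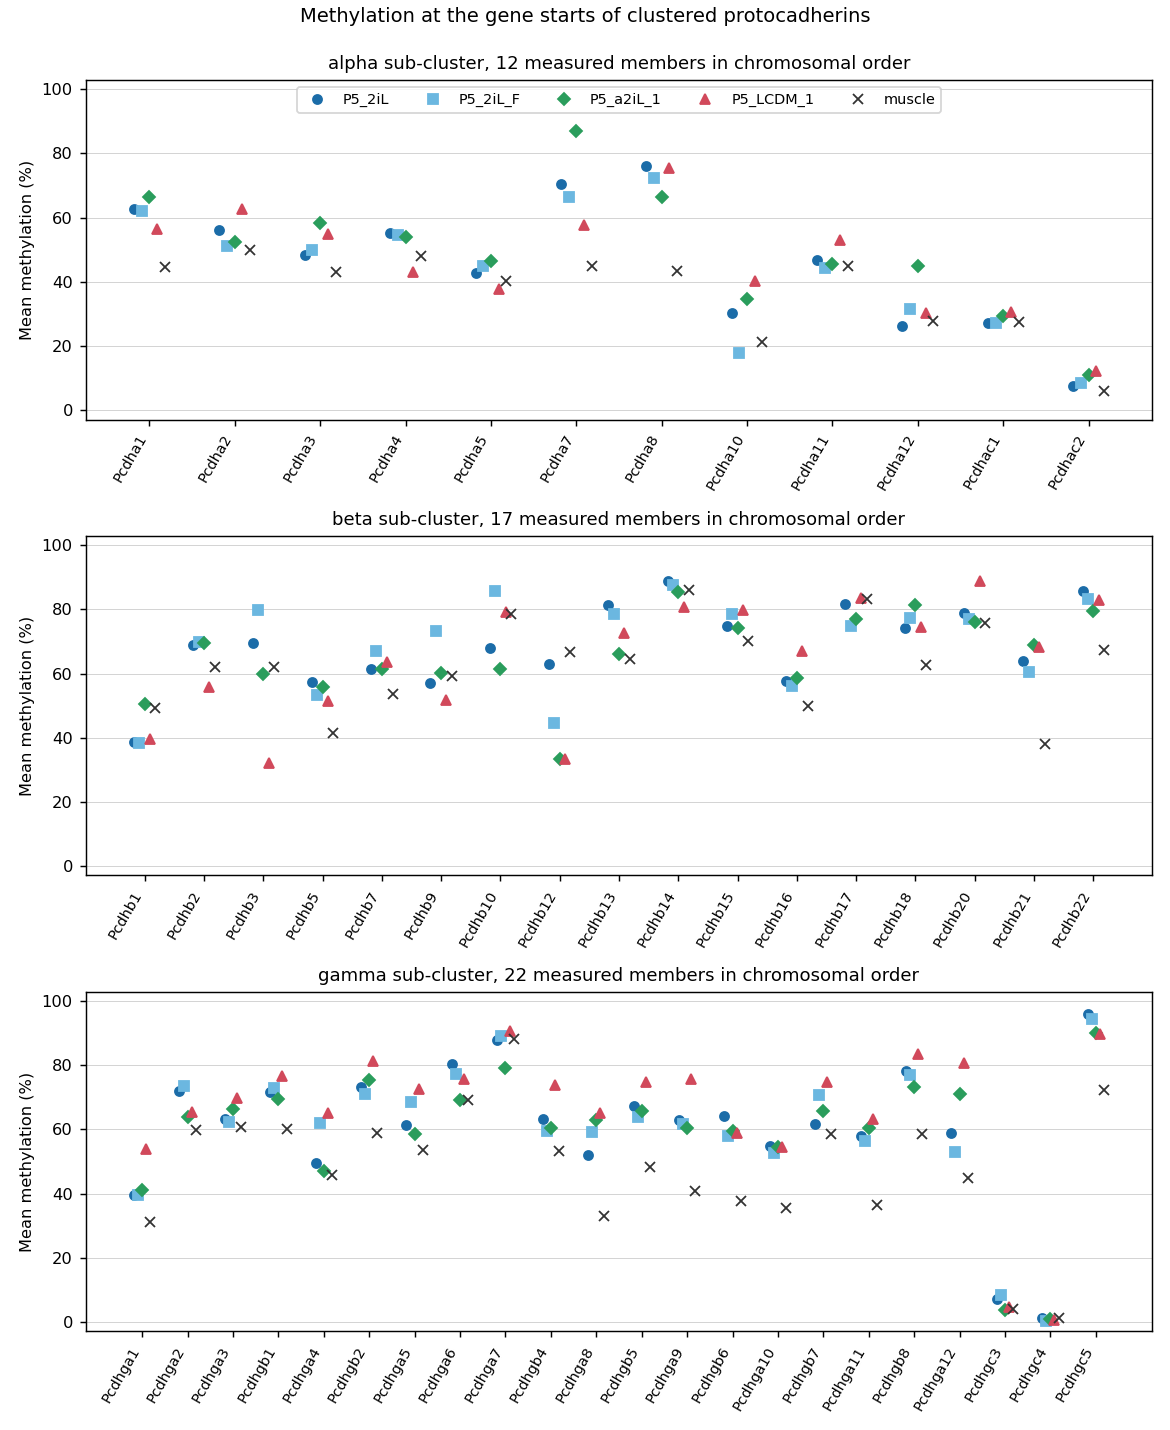
Mean methylation (%) of each measured member in chromosomal order, in the alpha (top), beta (middle) and gamma (bottom) sub-clusters, with 1 point per library and no error bars. Most members lie between 20 and 80%, muscle (crosses) is the lowest library at 34 of 51 members, and Pcdhgc3 and Pcdhgc4 lie near 0 beside Pcdhgc5 near the top.

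The intermediate window means came from intermediate single cytosines as well as from mixtures of low and high ones. Of 3111 shared cytosines in the member windows, those from 20 to 80% made up 47.7% in P5_2iL, 50.8% in P5_2iL_F, 50.2% in P5_a2iL_1, 46.6% in P5_LCDM_1 and 49.2% in muscle. In the windows of other genes that share ran from 5.66% in P5_2iL to 8.94% in P5_LCDM_1, with 6.07% in muscle. Alpha members outside the C-type had the largest share, 63.3% (P5_LCDM_1) to 69.6% (P5_2iL_F) in the teratomas and 61.8% in muscle. Cytosines below 20% made up 5.01% of the gamma windows outside the C-type in P5_LCDM_1, 9.25% in P5_2iL, 8.29% in P5_2iL_F and 10.4% in P5_a2iL_1, against 23.4% in muscle.

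**Figure D2:**
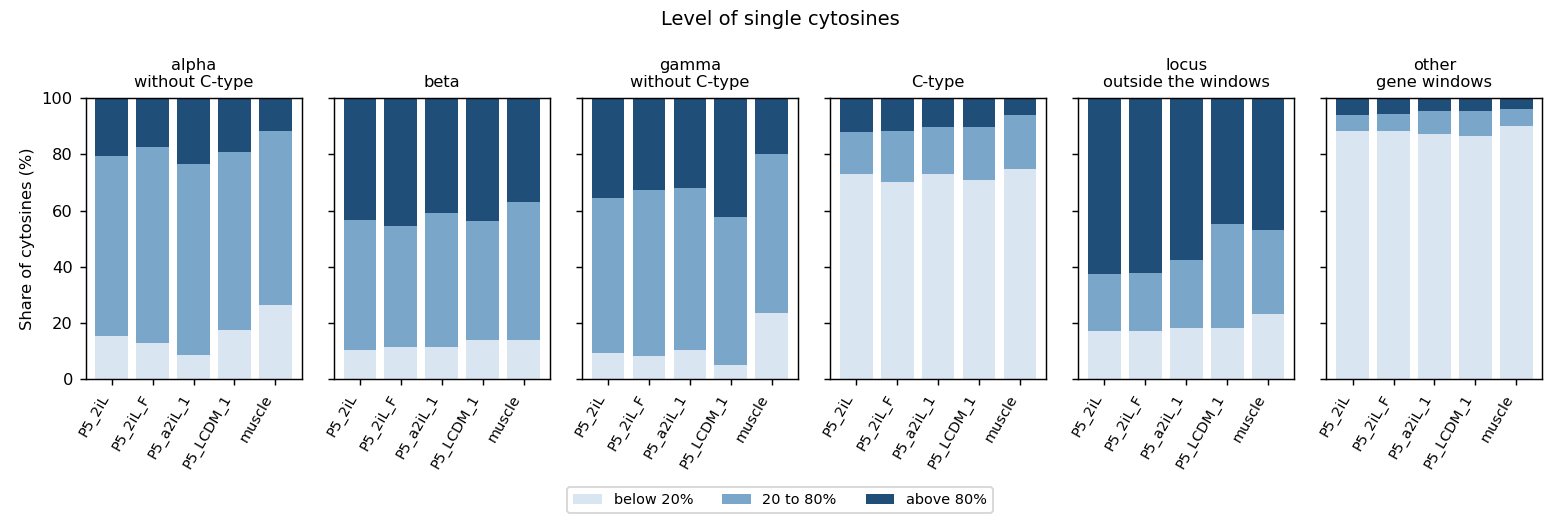
Share of single cytosines (%, stacked to 100) below 20%, from 20 to 80% and above 80% in each library, for the protocadherin groups, the rest of the protocadherin locus and the windows of other genes. The middle class is wide in alpha, beta and gamma windows and narrow in other genes, and the C-type windows look more like other genes.

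Members were then compared with muscle by a size rule of 25 points or more in the mean level. In P5_2iL 4 of 51 members were higher by the rule and 0 lower, where 4.2% and 1.24% of all gene windows were. P5_2iL_F had 2 higher and 0 lower, over backgrounds of 3.9% and 1.03%. P5_a2iL_1 had 4 higher and 1 lower, over 2.49% and 0.755%. In P5_LCDM_1 7 were higher (13.7% of members) and 2 lower (3.92%), over 2.52% and 1.29%. Most gene windows lie near 0 and have little room to differ, so the same shares were taken over 2017 other gene windows with a mean level of 20 to 80%. There 21.6%, 20.1%, 12% and 11.7% were higher in P5_2iL, P5_2iL_F, P5_a2iL_1 and P5_LCDM_1. The 45 members in that range of level had 8.89%, 4.44%, 8.89% and 15.6% higher. Lower were 6.69%, 5.65%, 3.67% and 5.85% of the other windows, and 0, 0, 1 and 2 of the 45 members. The shares of higher members stand for 4, 2, 4 and 7 of the 45. They were below those of the other windows in P5_2iL and P5_2iL_F and near them in P5_a2iL_1 and P5_LCDM_1. The 45 members had a median of 54 shared cytosines and the other windows 26. The part of coverage in these shares was not tested. With every gene taken at its lower coordinate whatever its strand, 8.04%, 7.42%, 4.66% and 4.48% of genes were higher and 1.79%, 1.6%, 1.11% and 1.84% lower.

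Smaller differences went mostly one way. The level was above muscle at 43 of 51 members in P5_2iL (84.3%), 44 in P5_2iL_F (86.3%), 43 in P5_a2iL_1 (84.3%) and 42 in P5_LCDM_1 (82.4%). Among the 45 members of intermediate level these shares were 84.4%, 86.7%, 91.1% and 84.4%. Among the 2017 other windows of intermediate level they were 77.6%, 76.2%, 67.7% and 63.1%, so the members in P5_2iL stood near that background. All 4 teratomas were above muscle at 34 members (66.7%), against 37.3% of all gene windows. That background is not matched for level, since 72.4% of all gene windows were below 20% in every library. The share above muscle in all 4 teratomas was not taken over the 2017 other windows of intermediate level. Whether the members differ from those windows in this share was thus not tested. Pcdhb12, over only 3 cytosines, was the 1 member below muscle in all 4 teratomas. The median difference over members was 7.78, 8.50, 7.21 and 11.8 points for P5_2iL, P5_2iL_F, P5_a2iL_1 and P5_LCDM_1. Over the 45 members of intermediate level it was 8.43, 12.3, 7.75 and 12.7 points, beside 8.64, 7.93, 3.92 and 3.06 points over the 2017 other windows of intermediate level. By sub-cluster, the medians for P5_2iL, P5_2iL_F, P5_a2iL_1 and P5_LCDM_1 were 5.73, 4.19, 9.78 and 9.80 points over alpha. Over beta they were 6.75, 8.23, 1.75 and 8.16 points, all below the error of a single beta difference, 11.6 to 12.3 points. That error comes from 8 beta members, and 1 of them, Pcdhb13, had muscle strands 60 points apart. The median strand difference of the 8 in muscle was 5.33 points. The error is also that of 1 member and not of a median over 17. The beta median changed sign in P5_a2iL_1 (-4.13) and P5_LCDM_1 (-8.16) when the window ended 500 bp after the start. Over gamma the medians were 11.9, 13.4, 9.76 and 19.1 points. Gamma had the highest median of the sub-clusters in 3 of the teratomas, and in P5_a2iL_1 alpha and gamma were level.

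**Figure D3:**
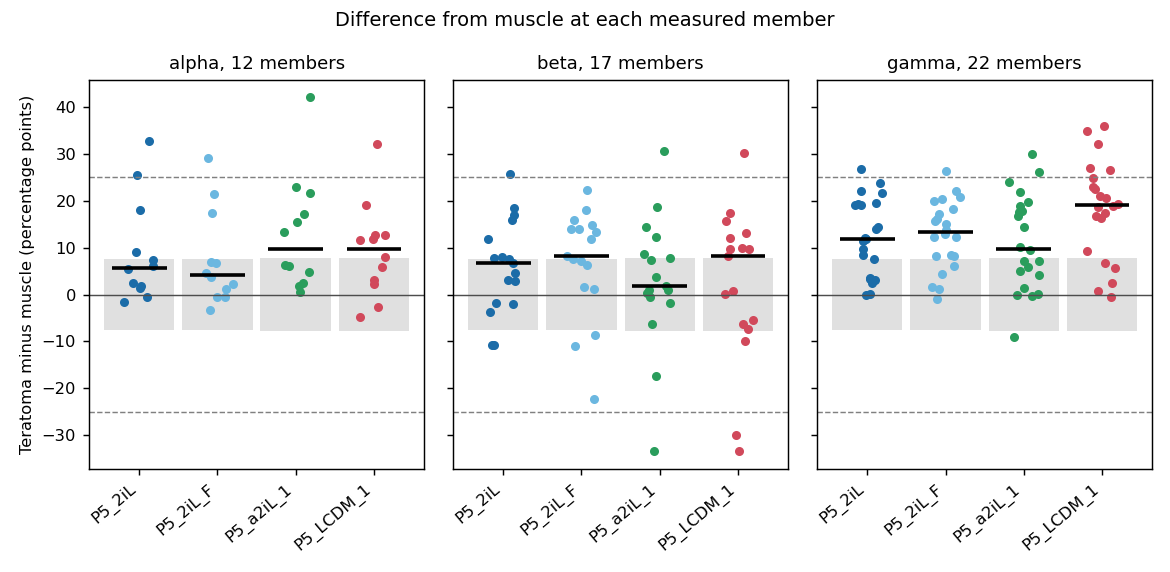
Difference from muscle (percentage points) of each measured member in the 4 teratomas, by sub-cluster, with the median as a black bar, the 25 point rule as dashed lines and the strand-based error of a single difference as a grey band. The gamma points sit almost wholly above 0 and are highest in P5_LCDM_1, while the beta points spread to both sides.

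In the alpha sub-cluster, whose variable exons encode the extracellular parts of alpha protocadherins, few members passed the rule, though P5_a2iL_1 was above muscle at all 12 and P5_LCDM_1 at 10. Pcdha8 was at 76.0% in P5_2iL, 72.4% in P5_2iL_F, 66.3% in P5_a2iL_1 and 75.5% in P5_LCDM_1, against 43.4% in muscle over 63 cytosines. All 4 teratomas lay well above muscle there, by 22.9 (P5_a2iL_1) to 32.7 points (P5_2iL). Over 19 strand pairs the difference of P5_LCDM_1 was 28.4 points on one strand and 37.5 on the other. Pcdha7 was at 70.5% in P5_2iL, 66.4% in P5_2iL_F, 87.0% in P5_a2iL_1 and 57.8% in P5_LCDM_1, against 45% in muscle. It had the widest range over libraries of the alpha members, 42.0 points, with P5_a2iL_1 at the top. The strands differed in size there, with 52.8 and 22.7 points for P5_a2iL_1 minus muscle.

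Other alpha members showed smaller steps. Pcdha1, the first gene of the array, was at 62.7%, 62.0%, 66.3% and 56.3% in P5_2iL, P5_2iL_F, P5_a2iL_1 and P5_LCDM_1, against 44.7% in muscle. Pcdha10 and Pcdha12 had low levels for the array, 30.3% and 26.1% in P5_2iL and 21.1% and 27.8% in muscle. At Pcdha12 P5_a2iL_1 stood out, at 44.9%, above the other teratomas at 26.1 to 31.6%. At Pcdha4 and Pcdha5 P5_LCDM_1 was the lowest library, 43.1% against 47.9% in muscle and 37.7% against 40.3%, both within the error of a difference. The difference of P5_a2iL_1 from muscle ran over the 12 alpha members from 0.595 points at Pcdha11 to 42.0 at Pcdha7.

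Beta members, which encode protocadherins without a shared cytoplasmic part, gave the least uniform picture. Pcdhb21 was at 63.8% in P5_2iL, 60.5% in P5_2iL_F, 68.8% in P5_a2iL_1 and 68.4% in P5_LCDM_1, against 38.2% in muscle over 19 cytosines. Each teratoma was above muscle there by 22.4 to 30.7 points. The last gene of the array, Pcdhb22, was also above muscle in each, at 85.8%, 83.3%, 79.5% and 83.1%, against 67.3%. The first gene, Pcdhb1, was below muscle in 3 teratomas, at 38.6%, 38.3% and 39.4% in P5_2iL, P5_2iL_F and P5_LCDM_1, against 49.3% in muscle, while P5_a2iL_1 was at 50.3%.

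The beta members past the rule in the lower direction had few cytosines. Pcdhb3, with 6 cytosines, was at 69.5% in P5_2iL, 79.8% in P5_2iL_F, 60% in P5_a2iL_1 and 32.1% in P5_LCDM_1, against 61.9% in muscle, the widest range among beta members. Pcdhb12, with 3, was at 63.0%, 44.4%, 33.3% and 33.3% in the same teratomas, against 66.7% in muscle. With 10 or more cytosines required, 0 members were lower by the rule in any teratoma. At Pcdhb13 the muscle strands lay 60 points apart over 5 pairs, so its differences from muscle of 1.75 (P5_a2iL_1) to 16.9 points (P5_2iL) are poorly fixed. Pcdhb14 had the smallest range of the beta members, 8.35 points, at 89.0%, 87.6%, 85.4% and 80.6% in P5_2iL, P5_2iL_F, P5_a2iL_1 and P5_LCDM_1, against 86.1% in muscle. Pcdhb17 was likewise high everywhere, at 74.7% (P5_2iL_F) to 83.4% (P5_LCDM_1) in teratomas and 83.4% in muscle.

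The gamma array alternates genes of A-type and B-type, named for their sequence families, and ends in 3 C-type genes. Outside the C-type, all 19 members were above muscle in P5_2iL_F and in P5_LCDM_1, and 18 in P5_2iL and in P5_a2iL_1. The exception in both cases was Pcdhga7, with 10 cytosines and 88.1% in muscle. In P5_LCDM_1 the median difference from muscle was 19.1 points over 12 A-type and 21.1 over 7 B-type members. In P5_2iL these were 11.7 and 14.4 points, in P5_2iL_F 14.4 and 12.9, and in P5_a2iL_1 7.94 and 14.5.

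Over the whole window, the members past the rule lay in the later part of the array. Pcdhga9 was at 63.0% in P5_2iL, 61.7% in P5_2iL_F, 60.5% in P5_a2iL_1 and 75.7% in P5_LCDM_1, against 40.8% in muscle over 91 cytosines. The 3 other teratomas were close together, 19.7 to 22.1 points above muscle, and P5_LCDM_1 was 34.9 points above it, with 31.1 and 34.1 points on the 2 strands. Pcdhga8 was at 52.1%, 59.3%, 63.0% and 65.0% in P5_2iL, P5_2iL_F, P5_a2iL_1 and P5_LCDM_1, against 33.0% in muscle. It passed the rule in the last 3, and the strands gave 34.1 and 30.6 points for P5_LCDM_1.

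Pcdhga12, the last A-type gene, had the widest range of the gamma members, at 58.8%, 53.0%, 71.0% and 80.8% in P5_2iL, P5_2iL_F, P5_a2iL_1 and P5_LCDM_1, against 44.8% in muscle. Its strands agreed in sign for P5_LCDM_1 minus muscle, with 25.4 and 39.8 points, and not for P5_2iL_F, with -11.0 and 27.1. Pcdhgb5 was at 67.4%, 63.9%, 65.7% and 74.8% in the 4 teratomas in the same order, against 48.2% in muscle over 114 cytosines. Pcdhga11 was at 58.1%, 56.3%, 60.3% and 63.3%, against 36.4% over 150. At Pcdhgb6 P5_2iL was the highest teratoma, with 64.3%, 57.9%, 59.5% and 58.8% against 37.7% in muscle, and its strands differed, with 34.2 and 13.1 points for P5_2iL. Members that passed the rule on each strand alone were Pcdha8 in P5_2iL, P5_2iL_F and P5_LCDM_1, Pcdhga8 in P5_a2iL_1 and P5_LCDM_1, Pcdhga9, Pcdhga12 and Pcdhgb5 in P5_LCDM_1, and Pcdhgc5 in P5_2iL and P5_2iL_F over its paired cytosines.

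Members earlier in the gamma array stayed under the rule over the whole window. Pcdhga1 was at 39.4%, 39.5%, 41.1% and 53.8% in P5_2iL, P5_2iL_F, P5_a2iL_1 and P5_LCDM_1, against 31.0% in muscle, with P5_LCDM_1 apart from the others. Pcdhga3 was at 62.2 to 69.9% in teratomas and 60.7% in muscle. Pcdhga4 split the teratomas, with 61.9% in P5_2iL_F and 65.0% in P5_LCDM_1 against 49.4% in P5_2iL and 47.2% in P5_a2iL_1, and muscle was at 45.8%. Pcdhgb4, with 173 cytosines the best covered gene outside the C-type, was at 63.2%, 59.4%, 60.6% and 73.9%, against 53.4% in muscle. This position did not hold in the first 500 bp after the start. There Pcdhga1, Pcdhga3, Pcdhgb2, Pcdhga5 and Pcdhgb4 passed the rule in P5_LCDM_1, at 28.8 to 48.5 points above muscle. Pcdhga2, Pcdhgb1, Pcdhga4 and Pcdhga6 did not.

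The 5 C-type members kept levels of their own, which spanned nearly the whole scale. All but Pcdhgc5 differed by 5.96 points or less over the 5 libraries. Pcdhgc4, which in mice is needed for the survival of neurons, was at 1.30% in P5_2iL, 0.240% in P5_2iL_F, 0.801% in P5_a2iL_1 and 0.561% in P5_LCDM_1, against 1.10% in muscle over 52 cytosines. Pcdhgc3, expressed in many tissues, was at 6.96%, 8.29%, 3.81% and 4.50%, against 3.83% in muscle over 242 cytosines. Both starts were thus near 0 in every library, and the first 500 bp after the start of Pcdhgc3 averaged at most 0.779%. Pcdhac2, known in mice from serotonergic axons, was at 7.48%, 8.24%, 10.8% and 12%, against 6.04% in muscle.

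Pcdhgc5, the last gene of the array, was methylated instead. It was at 96.1% in P5_2iL, 94.4% in P5_2iL_F, 90.2% in P5_a2iL_1 and 89.7% in P5_LCDM_1, against 72.4% in muscle. All 4 teratomas lay above muscle by 17.3 (P5_LCDM_1) to 23.7 points (P5_2iL), just under the rule. In its first 500 bp, over 14 cytosines, the gap was wider, with 96.0%, 91.3%, 85.1% and 80.8% against 41.3%. Pcdhac1 was intermediate, at 27%, 27%, 29.2% and 30.5% against 27.5%, the smallest range of the alpha members at 3.49 points. Within its window the 1 kb before the start was low, at 4.15% in P5_2iL, 4.53% in P5_2iL_F, 10.1% in P5_a2iL_1 and 12.5% in P5_LCDM_1, against 2.72% in muscle, and the 1 kb after it stood at 33.3 to 36.1% in teratomas and 34.7% in muscle.

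Levels changed with the distance from the gene start. In gamma members outside the C-type, the median over 16 members with enough cytosines was 38.8% in P5_2iL, 39.4% in P5_2iL_F, 36.1% in P5_a2iL_1 and 57.6% in P5_LCDM_1 in the first 500 bp, against 24.9% in muscle. From 1000 to 1500 bp it was 77.4%, 77.3%, 78.3% and 80%, against 65.4% in muscle, over 18 members. The level was thus higher from 1000 to 1500 bp than in the first 500 bp in all 5 libraries. P5_LCDM_1 stood apart from the other teratomas near the start and much less from 1000 to 1500 bp. Beyond 1500 bp the gamma median in muscle fell, to 56.0% up to 2000 bp over 8 members and 47.1% up to 2500 bp over 5. Beta members showed the same rise, with 47.6%, 52.5%, 44.4% and 35.5% in the first 500 bp, against 47.7% in muscle, and 82.3%, 81.6%, 86.6% and 81.6% from 1000 to 1500 bp, against 80.4%, over 8 and 5 members. Beyond that the beta median in muscle was 66.5% up to 2000 bp over 10 members and 58.9% up to 2500 bp over 3. Different members have cytosines in different steps, so the steps do not hold the same genes.

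**Figure D4:**
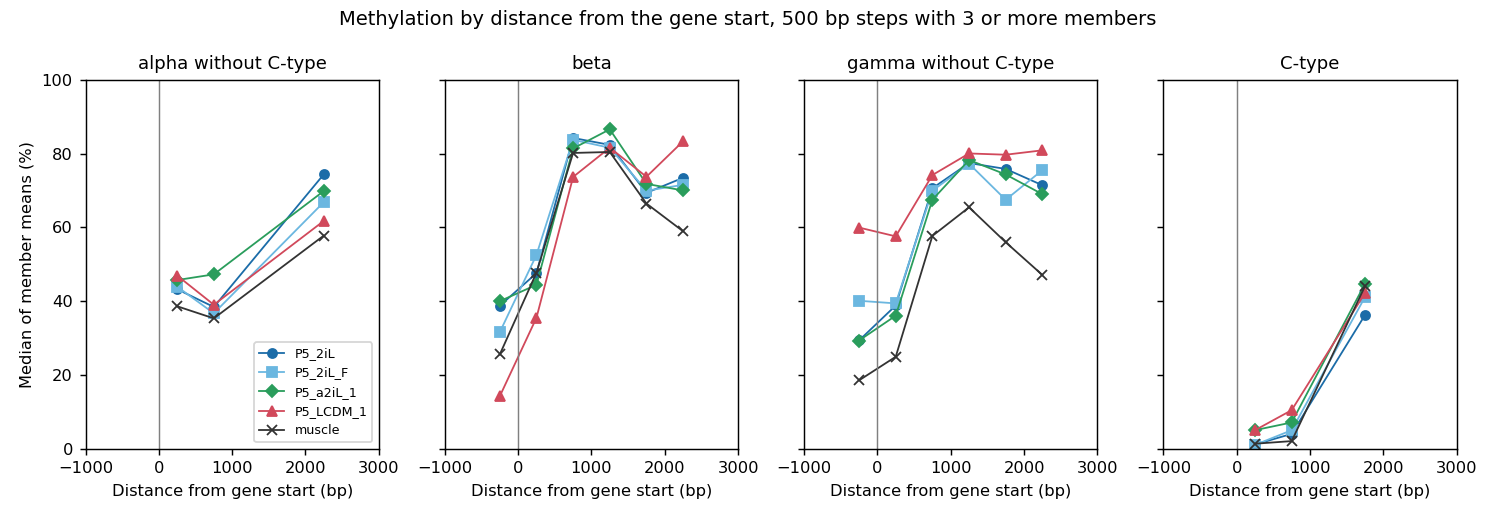
Median over members of the mean methylation (%) in 500 bp steps, by distance from the gene start (bp), for each library and group of members, in steps with 3 or more members. Gamma and beta levels climb in the first steps after the start and in muscle fall again beyond 1500 bp. C-type levels start near 0, and in gamma P5_LCDM_1 lies above the other libraries on both sides of the start.

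The first 500 bp after the start were then compared alone, a window chosen after these profiles had been seen. Of the 16 measured gamma members outside the C-type, 9 were higher by the rule in P5_LCDM_1, 1 in P5_2iL, 5 in P5_2iL_F and 4 in P5_a2iL_1, and 0 were lower in any of the 4. The matching shares of all genes in this window were 2.53%, 3.01%, 2.91% and 2.17%, and of 595 other genes with a mean level of 20 to 80% they were 27.2%, 40.5%, 37.0% and 26.4%. Lower in the same order were 0.792%, 0.615%, 0.656% and 0.5% of all genes and 8.07%, 7.73%, 8.07% and 6.55% of the 595. The median difference from muscle over the 16 members was 29.1 points in P5_LCDM_1, 16.4 in P5_2iL, 21.1 in P5_2iL_F and 13.4 in P5_a2iL_1. Over the 595 other genes it was 10.2 points in P5_LCDM_1, 19.9 in P5_2iL, 17.4 in P5_2iL_F and 10.5 in P5_a2iL_1.

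P5_LCDM_1 was the highest teratoma at 10 of these 16 gamma starts (62.5%), against 23.5% of the 595 other genes. The root mean square strand error of a member's mean was 4.74 to 6.41 points here. Of 13 members with 3 or more strand pairs in the 500 bp, P5_LCDM_1 was above all 3 other teratomas on both strands at 8. The clearest was Pcdhgb4, at 57.6% in P5_LCDM_1, 32.2% in P5_2iL, 24.1% in P5_2iL_F and 18.6% in P5_a2iL_1, against 28.2% in muscle over 28 cytosines. There the 3 other teratomas lay around muscle and P5_LCDM_1 lay above all of them, by 33.3 points or more on one strand and 36.0 or more on the other. Pcdhga9 was at 70.2% in P5_LCDM_1 and 46.6 to 57.6% in the others, against 29.6% in muscle. Pcdhga3 was at 66.9% in P5_LCDM_1 and 40.5 to 50.9% in the others, against 35.8%.

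Other gamma starts did not follow that order. Pcdhga11 was at 60.2% in P5_2iL, 59.8% in P5_2iL_F, 65.1% in P5_a2iL_1 and 57.5% in P5_LCDM_1, against 26.0% in muscle, so all 4 teratomas were alike and far above muscle. At Pcdhgb1 the 4 stood at 38.1%, 34.0%, 23.6% and 27.5%, against 25.7%. At Pcdhga5 P5_2iL was close to muscle, 14.6% against 9.52%, while P5_2iL_F was at 50.0%, P5_a2iL_1 at 35.7% and P5_LCDM_1 at 58.0% over 12 cytosines.

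**Figure D5:**
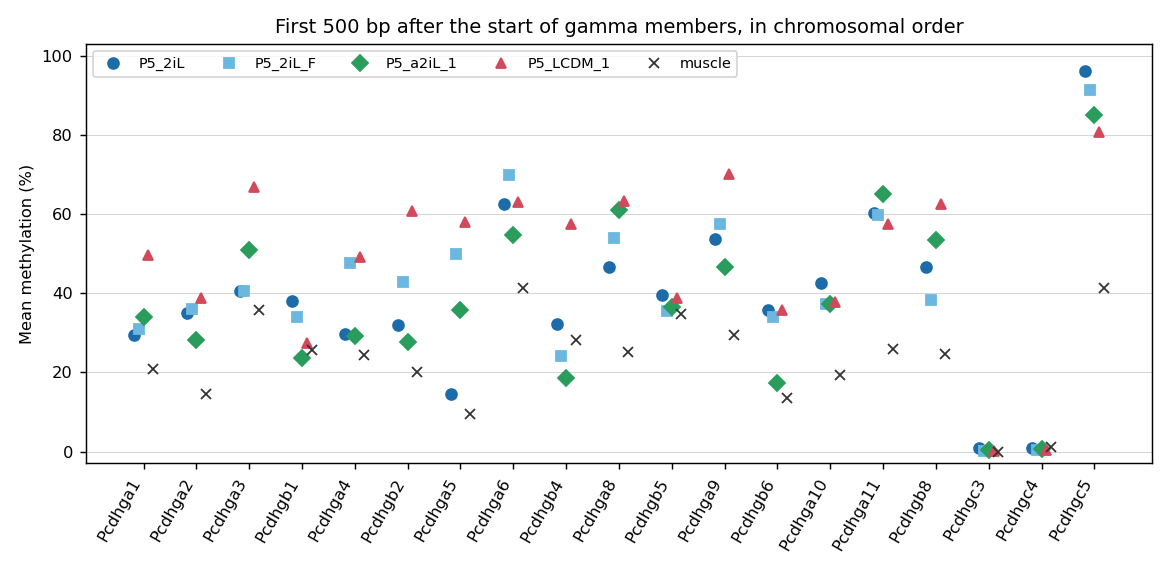
Mean methylation (%) in the first 500 bp after the start of each gamma member with 3 or more shared cytosines, in chromosomal order, with 1 point per library. P5_LCDM_1 (triangles) is the highest teratoma at 10 of the 16 members before Pcdhgc3, by the widest gap at Pcdhgb4, and Pcdhgc3 and Pcdhgc4 are near 0 in all libraries.

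Between teratomas, few members differed by 25 points or more over the whole window. P5_2iL_F minus P5_2iL had a median of -1.06 points with 0 members past the rule in either direction (0.181% of all gene windows were higher and 0.172% lower). P5_a2iL_1 minus P5_2iL had a median of -1.23 points, with 0 higher and 1 lower member, Pcdhb12 (0.936% and 1.38%). P5_LCDM_1 minus P5_2iL had a median of 3.49 points, with 0 higher and 2 lower members, Pcdhb3 and Pcdhb12 (1.12% and 2.91%). P5_a2iL_1 minus P5_2iL_F had a median of 1.12 points, with 0 members past the rule (0.722% of all gene windows were higher and 1.08% lower). P5_LCDM_1 minus P5_2iL_F had a median of 1.63 points, with Pcdhga12 higher by 27.8 points and Pcdhb3 lower, at -47.8 (1.02% and 2.46%). P5_LCDM_1 minus P5_a2iL_1 had a median of 2.99 points, with 0 higher and 2 lower members, Pcdha7 at -29.3 and Pcdhb3 at -27.9 (0.747% and 1.5%). Of the 2017 other windows of intermediate level, 0.595%, 4.51%, 5.35%, 3.72%, 4.66% and 2.68% were higher in these pairs, in order. Lower were 0.942%, 7.04%, 14.3%, 5.5%, 11.998% and 6.2%. Of the 45 members of intermediate level 0, 0, 0, 0, 1 and 0 were higher and 0, 1, 2, 0, 1 and 2 lower. Each share of members was thus below that of the level-matched windows, but stands for 0 to 2 members. Coverage was not matched. The pairs share libraries and are not independent.

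By sub-cluster the median of P5_LCDM_1 minus P5_2iL was 3.71 points over alpha, 0.298 over beta and 6.02 over gamma. Outside the C-type the alpha median was 1.73 points, with 5 of 10 members above P5_2iL. Over single cytosines the mean difference was -2.32 points in alpha outside the C-type and -1.98 in beta. In gamma outside the C-type it was 7.12 points. Over other gene windows of intermediate level the median was -4.45 points, and 616 of those 2017 windows were above P5_2iL, against 15 of 22 gamma members. The 18 gamma members of intermediate level had a median of 7.72 points, with 14 above. The 8 measured protocadherins outside the clusters had a median of 5.38 points with 7 above, and 22 Hox genes 2.85 points with 16 above. The 9 measured cadherins had -0.731 points with 3 above. P5_LCDM_1 was also above P5_2iL_F and above P5_a2iL_1 at 18 of 22 gamma members each, with medians of 4.01 and 6.93 points. In the first 500 bp other members passed the rule for P5_LCDM_1 minus P5_2iL, with 4 of 39 higher (10.3%) and 0 lower. Of all genes 1.11% were higher and 1.7% lower, and of the 595 other genes of intermediate level 10.3% and 21.2%. The share of higher members was thus near that of the 595. The 4 higher members were Pcdhga3, Pcdhgb2, Pcdhga5 and Pcdhgb4. Over the whole window they were also higher, by 6.72, 8.11, 11.3 and 10.8 points. Pcdhb3 was still lower in the first 500 bp, at -22.3 points over 3 cytosines, and Pcdhb12 had too few cytosines there.

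The DNA outside the member windows, taken over the alpha, beta and gamma parts of the locus together, did not share the gamma pattern. Over its 501 shared cytosines the mean was 73.7% in P5_2iL, 72.6% in P5_2iL_F, 70.9% in P5_a2iL_1 and 63.2% in P5_LCDM_1, against 62.7% in muscle. P5_LCDM_1 was thus the lowest teratoma between the windows, and over the 1557 cytosines of the gamma windows outside the C-type it was the highest, at 70.4% against 62.8 to 63.2% in the others and 48.2% in muscle. The alpha and beta windows did not share the gamma pattern either. P5_LCDM_1 had the lowest teratoma mean over cytosines of alpha windows outside the C-type, 50.0% against 51.3 to 56.7%. The same held over beta windows, 66.3% against 67.1 to 68.8%, and over all autosomal shared cytosines, 44.4% against 46.5 to 49.5%. Single gamma cytosines outside the C-type were 25 points or more above muscle at 46.8% of positions in P5_LCDM_1, 33.1% in P5_2iL, 33.8% in P5_2iL_F and 33.7% in P5_a2iL_1. Over all autosomal shared cytosines P5_LCDM_1 had the smallest such share, 12.6%, and P5_2iL the largest, 16.3%.

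Protocadherins outside the clusters, adhesion molecules with a gene each, had low levels. Of 12 on the list 8 were measured, and 0 passed the rule against muscle in any teratoma, with medians of 3.43%, 3.13%, 8.20% and 10% in P5_2iL, P5_2iL_F, P5_a2iL_1 and P5_LCDM_1, against 2% in muscle. P5_LCDM_1 was above muscle at all 8, by 0.431 to 13.0 points. Among 9 measured genes of a list on the regulation of protocadherin choice, which holds CTCF, cohesin and DNA methyltransferase genes, 0 passed the rule. Of 9 measured cadherins, the wider adhesion family, 2 were higher by the rule in each teratoma, against 2.49 to 4.2% of all gene windows. Cdh15, the M-cadherin of muscle precursor cells, was 1 of the 2 in all 4 teratomas, at 79.8 to 90.3% against 49.8% in muscle. The other was Cdh26 in P5_2iL and P5_2iL_F, and Cdh7 in P5_a2iL_1 and P5_LCDM_1. The Hox genes, another clustered and CpG-rich family, had medians of 8.06%, 8.86%, 11.4% and 15.0% over 22 measured members, against 9.27% in muscle, far below the protocadherin medians.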

How the data were processed

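The deposited files give the methylation level of each CpG cytosine in percent, 1 strand per line, and no number of reads. Reads were trimmed by Trim Galore (0.6.4) and handled with Bismark on build mm10, as far as the submitters' processing notes name tools. The sources used here do not give the coverage minimum, nor how reads that match several similar protocadherin genes were treated. Per the labels, libraries were amplified by PCR, so reads are not independent molecules.

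Gene starts were taken from RefSeq's table for assembly GRCm38.p6 (mm10). Levels are unweighted means over cytosines listed in all 5 libraries. The background used the same window at 16457 other autosomal protein coding genes whose strand a RefSeq promoter table gives, and other lists count only such genes. Other genes of chromosome 18 had no strand there and were not used. Neighbouring listed positions were paired as the strands of a CpG. Full values are given for C-type members, the first and last measured member of each sub-cluster, the members of widest and narrowest range, and all past the 25 point rule. Any further member with values was chosen after they were seen. The members and lists were chosen with earlier results of these data known. Calculations ran in Python 3.11.15 with pandas 2.3.3, NumPy 2.4.6 and matplotlib 3.10.9, and the window code was tested on simulated data.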

Additional observations from a re-analysis of the deposited data

Results flagged for a closer look

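Pcdhb3 differed from muscle in opposite directions in a pair of teratomas. P5_2iL_F was 17.9 points above muscle and P5_LCDM_1 was lower, with a difference of -29.9 points, over only 6 cytosines. The difference between these teratomas was not tested, since each group holds 1 library.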

How the results depend on the processing

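No paired analysis was possible because each group holds 1 library, and none could be left out. Of 222 alternative values, 191 stayed within 1.5 times the count or within the strand error of a difference. For medians that error is the error of 1 member's difference, so the limit is wide. The 191 include values that could not change. In all, 0 shared cytosines lay in more than 1 window, so leaving such cytosines out altered nothing. Beta has no C-type member to leave out. A threshold of 15 points gave 15, 16, 18 and 23 members past the rule for P5_2iL, P5_2iL_F, P5_a2iL_1 and P5_LCDM_1 minus muscle, and 3, 4 and 4 for P5_2iL_F, P5_a2iL_1 and P5_LCDM_1 minus P5_2iL. A threshold of 35 points gave 0, 0, 1 and 1 against muscle, and 0 (P5_a2iL_1) and 1 (P5_LCDM_1) against P5_2iL. With 10 or more cytosines, 0 members passed for P5_a2iL_1 and for P5_LCDM_1 minus P5_2iL. Over cytosines of only the 2 libraries compared, 1 passed for P5_2iL_F minus muscle and 1 for P5_LCDM_1 minus P5_2iL. From 1000 bp before to 500 bp after the start, 9 passed for P5_2iL_F minus muscle and 2, both higher, for P5_2iL_F minus P5_2iL. For P5_LCDM_1 minus P5_2iL 4 passed, all higher, where over the whole window 2 passed, both lower, and for P5_a2iL_1 minus P5_2iL 1 was higher where 1 had been lower. In that window the median was 28.56 points over gamma in P5_LCDM_1 minus muscle, and it changed sign over beta in P5_a2iL_1 (-4.13) and P5_LCDM_1 (-8.16) minus muscle and over members in P5_a2iL_1 minus P5_2iL (0.40). In the first 500 bp, added after the data were seen, 8 passed for P5_2iL_F minus muscle, 1 (higher) for P5_2iL_F minus P5_2iL and 4, again all higher, for P5_LCDM_1 minus P5_2iL. There the gamma medians minus muscle were 20.66 (P5_2iL_F) and 28.81 (P5_LCDM_1), and the beta medians -4.80 (P5_a2iL_1) and -6.39 (P5_LCDM_1). The cause of these changes was not tested. The shorter windows measured only 40 and 39 members, and the unknown read depth limits every value.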
